A study of Anguilla anguilla with 15 samples.

Results

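The 100 contigs described here varied most between samples of a site, among contigs with a mean level near that of a common gonad pool. They were taken from an array of 992 contigs, which are assembled transcript sequences of the European eel, Anguilla anguilla. A contig was near the pool when it had a value on all 15 arrays and its site means were neither both 1 or more nor both -1 or less on the log2 scale, which left 549 of 921 complete contigs. Members were selected on the pooled within-site SD, the square root of the variance within Certes and within Gironde averaged over their 7 and 6 degrees of freedom, and the 100 largest were kept. The measured spread therefore chose the contigs, and the SDs below are descriptions with no test. Neither data table pairs a contig with a gene name, and 0 of the 992 IDs occur in the table of 31451 genes of the eel reference assembly used here, so contigs are called by their IDs and no function is given.

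Gonad RNA came from wild female eels of 2 sites, 8 samples from Certes, described as clean, and 7 from Gironde, described as contaminated. By the title, gonad maturation had been induced artificially. The labels used here give neither an age nor a stage for a sample, nor the treatment that induced maturation. Samples carried the dye Cy3, and the reference on every array carried Cy5. That reference was made of the gonads of 30 wild eels, all from Certes, and the labels used here do not say whether any of them is also a sample. All groups share this reference, and no dyes were swapped, so a dye preference of a contig is part of each of its ratios. Certes 1 to 8 and Gironde 1 to 7 are samples numbered in the order of their records, and the numbers pair nothing.

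The gonad of a female eel holds oocytes at various stages, the follicle cells around them and connective tissue. In nature eels leave for the sea with immature ovaries, and in captivity the ovary matures only under hormone treatment. Oocytes then fill with yolk supplied by the liver, and the RNA of an ovary changes as oocytes grow and take up more of the tissue. Animals given the same treatment are known to differ in how fast they respond. In such bulk samples fewer cells of a type and less RNA per cell cannot be told apart.

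Every array had a median log ratio of 0 over its contigs. Each array held a value for 953 to 991 contigs, and the arrays with the most empty cells were Gironde 4, Gironde 6 and Gironde 3 with 39, 27 and 17. The width of an array, given as the scaled median absolute deviation of all its log2 ratios, lay between 1.13 and 1.86. The values are read as log2 of sample over pool, which is likely and not certain. If the ratio ran the other way, every level and difference would change sign, and the SDs, correlations between contigs and p-values would stay.

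The 100 contigs had pooled SDs between 0.640 and 1.61, with a median of 0.806 on the log2 scale. The other 449 near-pool contigs had a median of 0.370. At the limit, contig_39706 and contig_11861 were the last taken, with pooled SDs of 0.641 and 0.640. The first not taken were contig_17189 and contig_37161 at 0.637 and 0.622, so the limit falls in a continuous series of values. Between the lowest and the highest of the 15 arrays a contig of the 100 spanned 1.87 to 6.71 on the log2 scale (median 3.07), against a median of 1.30 among the other near-pool contigs. In 32 of the 100 some arrays lay at 1 or above and others at -1 or below. Both site means lay within 1 of the pool for 67 contigs, and 33 had 1 of their site means beyond that limit. The levels of single arrays ran from -5.40, contig_21396 on Gironde 1, to 4.98, contig_4723 on Gironde 4.

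The contig with the largest pooled SD was contig_4006 (1.61). Its log2 ratio to the pool was lowest at -1.75, had a median of -0.44 and was highest at 0.86 over the 8 Certes arrays. Over the 7 Gironde arrays the lowest, median and highest values were -2.76, -0.59 and 3.72. Gironde 1 was the high array and Gironde 2 and 5 the low ones, and the Certes values all fell inside the Gironde range. contig_21396 (pooled SD 1.38) ran from -1.62 over a median of -0.17 to 1.30 in Certes and from -5.40 over -1.89 to -0.02 in Gironde. Its lowest value was on Gironde 1, the high array of contig_4006. contig_4723 (pooled SD 1.31) ran from -0.80 over 0.28 to 1.26 in Certes and from 0.17 over 1.27 to 4.98 in Gironde, with Gironde 4 and 6 far above the rest at 4.98 and 3.61. contig_14594 (pooled SD 1.27) lay between -1.62 and 0.13 on 14 arrays and at 4.00 on Gironde 6. The other contigs among the first 8 were contig_35165, contig_2179, contig_17499 and contig_19308, each with 1 or 2 arrays far below the rest.

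**Figure D1:**
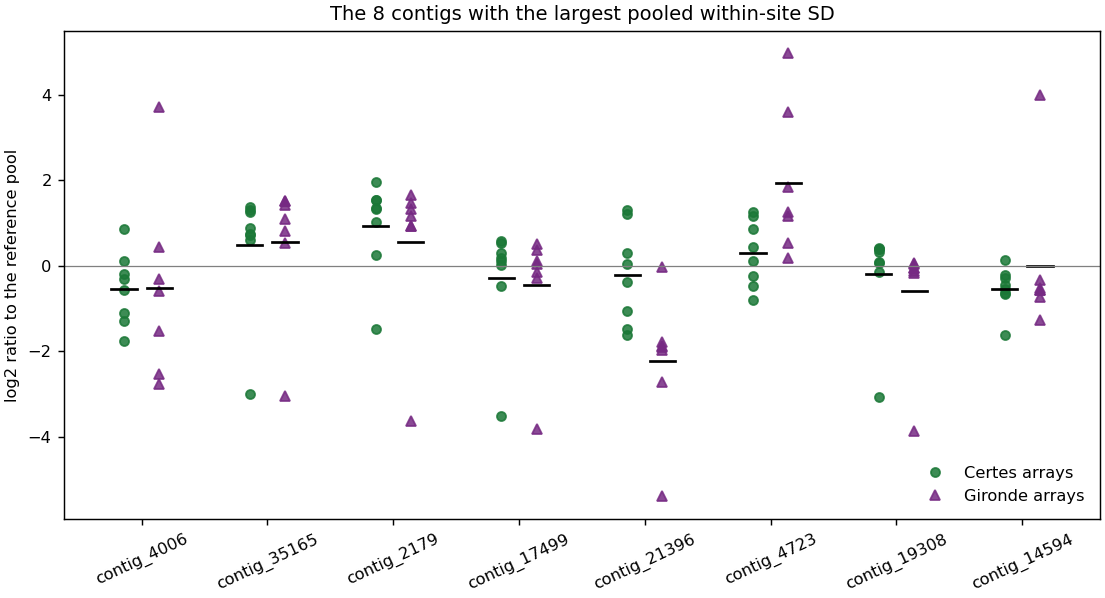
Log2 ratio to the reference pool (vertical axis) of the 8 contigs with the largest pooled within-site SD (horizontal axis), 1 circle per Certes array and 1 triangle per Gironde array, with bars at the site means. In some contigs 1 or 2 arrays stand far off, such as Gironde 6 at 4.00 in contig_14594. In contig_4006 and contig_21396 Gironde 1 stands far off, at 3.72 and -5.40, and the other arrays spread as well. Without Gironde 1 the pooled SD of each of these contigs was 1.04.

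Certes 1 and Gironde 5 were low together in a set of 4 contigs. contig_35165 was at -2.998 on Certes 1 and at -3.06 on Gironde 5. Its other 13 arrays lay between 0.54 and 1.52, with a mean of 1.06 ± 0.36 (SD, n = 13). The gap of 3.54 between these sets was 77.3% of its whole range. contig_17499 was at -3.53 and -3.82 on the same arrays and at 0.14 ± 0.32 (SD, n = 13) on the others. contig_19308 was at -3.06 and -3.87, and at 0.10 ± 0.21 (SD, n = 13) on the others. For these 3 contigs the mean of the 13 arrays lay 4.09, 3.82 and 3.56 above the mean of the 2 low arrays on the log2 scale. With a smaller gap, contig_25419 was also lowest on these arrays, at -3.80 and -3.38, against -0.80 ± 0.60 (SD, n = 13) elsewhere. Each site gave 1 of the low arrays, so the pattern crosses the sites.

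Without these 2 arrays the pooled SD fell from 1.53 to 0.364 in contig_35165, from 1.43 to 0.333 in contig_17499, from 1.31 to 0.172 in contig_19308 and from 1.15 to 0.572 in contig_25419. All 4 would then lie under the limit of 0.640. After subtraction of the site means their profiles over the 15 arrays correlated with r between 0.837 and 0.981. The 2 low arrays largely set these r and those that follow, and no r over the other 13 arrays is given. The 4 contigs share arrays, reference and dyes, and this set was singled out after its values were seen. Among the 921 complete contigs, those whose uncentred profile was most like that of contig_35165 were contig_19308 (r = 0.964 over 15 arrays), contig_17499 (0.944), contig_38918 (0.853) and contig_25419 (0.819). contig_38918 is not among the 100, since it lay above the pool in both sites. It too was lowest on Gironde 5, at -2.13, and on Certes 1, at -0.33, with the other 13 arrays between 0.405 and 2.40. Certes 1 and Gironde 5 were the lowest arrays in 5 of the 100 contigs, in 1 of the other 449 near-pool contigs and in 4 of the 372 contigs far from the pool. They were the highest in 0, 1 and 1 contigs of these sets. Both lay more than 1 below every other array in 4, 0 and 0 contigs of these sets. In contig_4484, also among the 5, the gap was 0.054. In the reference channel the brightness of contig_35165 exceeded that of 38.4% of the 992 contigs, of contig_17499 58.1%, of contig_25419 62.0% and of contig_19308 70.6%, so none was in the dimmest 25%. Certes 1 and Gironde 5 had 4 empty cells each, the most in Certes and the fewest in Gironde, and widths of 1.33 and 1.479, inside the range of their sites.

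**Figure D2:**
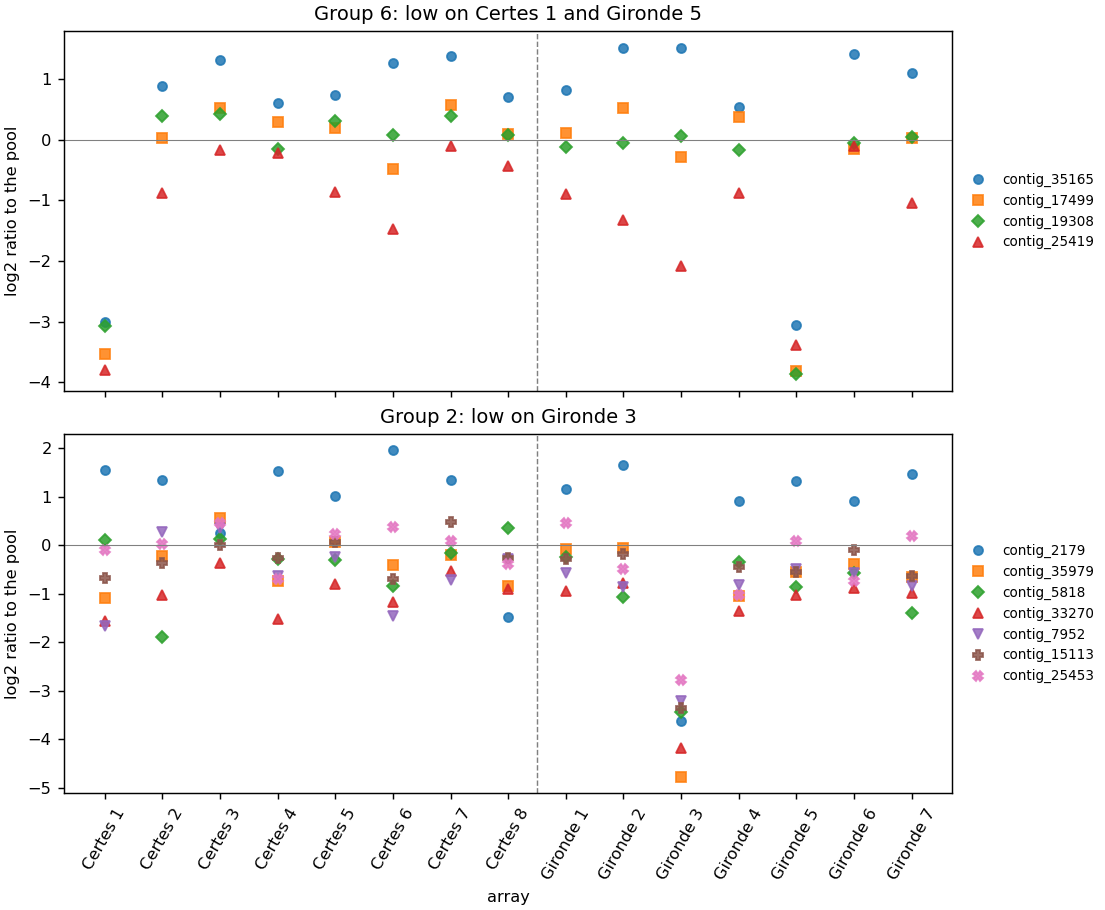
Log2 ratio to the pool (vertical axis) on each of the 15 arrays (horizontal axis, Certes left of the dashed line) for the 4 contigs low on Certes 1 and Gironde 5 (top) and the 7 contigs low on Gironde 3 (bottom), 1 symbol per contig. In the top panel contig_35165, contig_17499 and contig_19308 lie between -0.47 and 1.52 on the other 13 arrays and at -2.998 or lower on Certes 1 and Gironde 5.

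A larger set was lowest on Gironde 3. Its 7 contigs were contig_2179, contig_35979, contig_5818, contig_33270, contig_7952, contig_15113 and contig_25453, and in all 7 Gironde 3 was the lowest of the 15 arrays. Gironde 3 read between -4.78 and -2.79 for them, 1.54 to 3.69 under the next lowest array. For contig_35979 it was at -4.78, where the other 6 Gironde arrays gave -0.46 ± 0.38 (SD, n = 6) and the Certes arrays ran from -1.09 over a median of -0.32 to 0.57. For contig_33270, among the brightest contigs of the reference, it was at -4.19, where the other Gironde arrays gave -0.995 ± 0.197 (SD, n = 6) and the Certes arrays ran from -1.57 over -0.97 to -0.36. For contig_15113 it was at -3.35, against -0.37 ± 0.21 (SD, n = 6) on the other Gironde arrays and -0.70 to 0.47 in Certes. Without Gironde 3 the pooled SDs of these 3 contigs fell from 1.199 to 0.475, from 0.886 to 0.352 and from 0.828 to 0.327. Some of the 7 had further low arrays in Certes, such as Certes 2 at -1.89 in contig_5818 and Certes 1 and 6 at -1.67 and -1.45 in contig_7952. contig_2179 had Certes 8 as such an array, at -1.47 where the other Certes arrays lay at 0.26 or above, and kept a pooled SD of 0.858 without Gironde 3. None of the 7 was in the dimmest 25% of the reference channel. Gironde 3 was more than 1 below every other array in 7 of the 100 contigs and in 11 of the 921 complete contigs. Gironde 2 was so in 5 and 12. Gironde 3 also had 17 empty cells and a width of 1.72, and the part of either in these low values was not tested.

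Over the 100 contigs, steps of this kind were counted as contigs whose largest gap between neighbouring arrays took at least 50% of the range, a limit chosen after the values were seen. There were 14 among the 100 contigs, 6 among the other 449 near-pool contigs (1.34%) and 8 among the 372 far from the pool (2.15%). A large spread favours such contigs, so the larger share among the 100 is a description of what the rule selects. In 11 of the 14 a single array stood apart, a Gironde array in 8 (Gironde 3 in 4 of them) and a Certes array in 3, and in 3 it was the 2 arrays Certes 1 and Gironde 5. The step was downward in 9 and upward in 5. All 5 upward steps were in contigs from the dimmest 25% of the reference channel, and 0 of the 9 downward steps were. The upward steps were contig_14594 (4.00) and contig_5349 (2.31) on Gironde 6, contig_14877 (3.61) on Gironde 4, contig_22555 (3.90) on Certes 1 and contig_36005 (2.64) on Gironde 5. Among the downward steps were contig_3639, at -3.72 on Certes 2 and between -0.67 and 0.57 on the other 14 arrays, and contig_6092, at -2.69 on Certes 1. The part of a weak reference signal in the upward steps was not tested.

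The contigs did not vary as 1 block. After each site's mean was subtracted, the median correlation over the 4950 pairs of the 100 contigs was 0.071, and 5% of pairs lay under -0.49 and 5% over 0.67. The first 3 principal components held 23.8%, 14.2% and 12.1% of the within-site variance. In the other near-pool contigs the first component held 21.2%, so a share of this size is not particular to the 100. Average linkage on 1 - r, cut at a distance of 0.5, gave 5 groups of 5 or more contigs with 48 contigs in all, 16 groups of 2 to 4 with 44 contigs, and 8 contigs alone. Groups are numbered here by size. They were built from the same values that they describe and get no test. Groups 2 and 3 both held 7 contigs, so 3 groups rather than 2 are described by their leading contigs. Group 2 is the set low on Gironde 3, and group 6 the 4 contigs low on Certes 1 and Gironde 5.

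**Figure D3:**
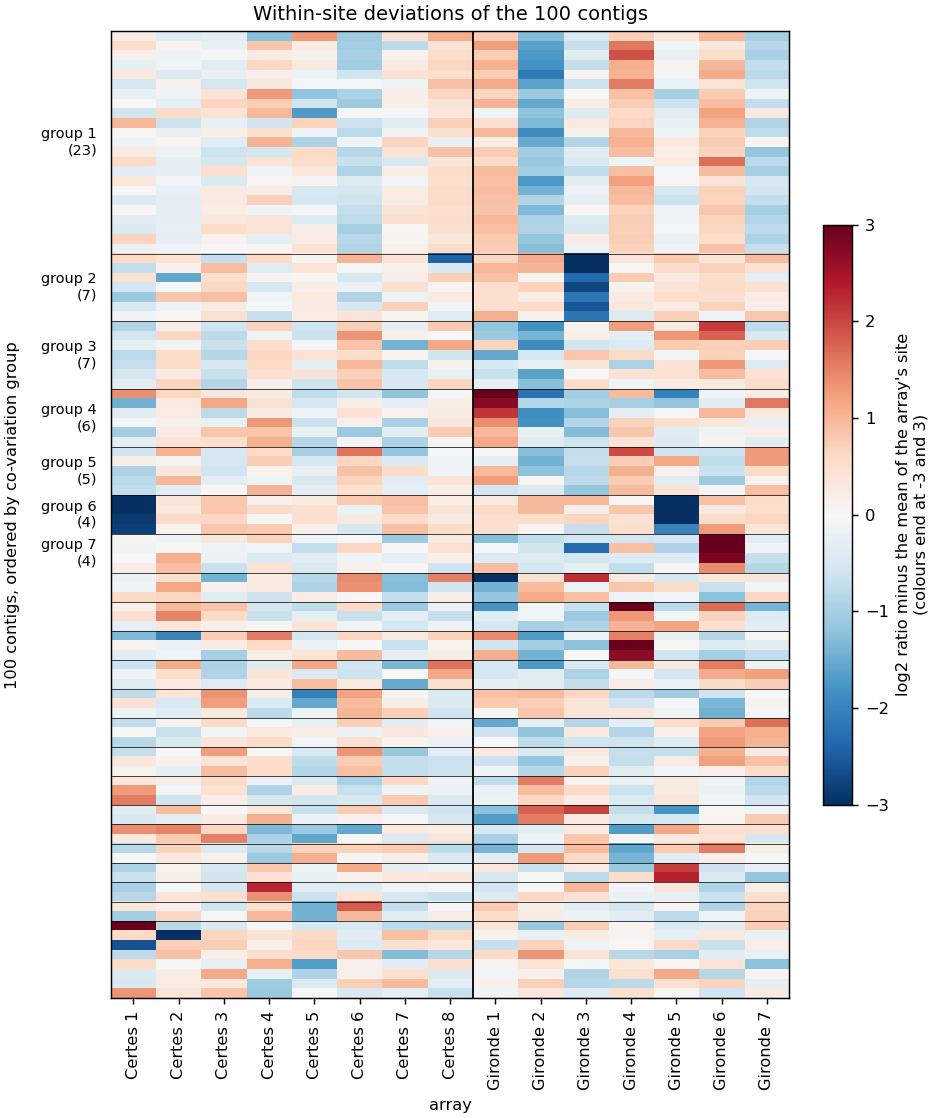
Deviation of each log2 ratio from the mean of its site (colour, ending at -3 and 3) for the 100 contigs (rows, ordered by co-variation group, group sizes in brackets) on the 15 arrays (columns, Certes left of the black line). Group 1 is low on Gironde 2 and high on Gironde 1, 4 and 6, group 2 is low on Gironde 3, and group 6 is low on Certes 1 and Gironde 5.

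Group 1 was the largest, with 23 contigs (13 contigs with complete linkage). The pairwise r had a median of 0.771 and ran from -0.068 to 0.953. The contig with the lowest mean r to the rest of the group was contig_20450 (0.405). The spread of group 1 was graded over many arrays. The mean deviation of its contigs from their site mean was 0.92 on Gironde 4, 0.80 on Gironde 6 and 0.79 on Gironde 1, -0.15 on Gironde 5, -0.28 on Gironde 3, -0.70 on Gironde 7 and -1.37 on Gironde 2. In Certes it ran from -0.72 on Certes 6 to 0.53 on Certes 8, with the other 6 arrays between -0.17 and 0.26. Gironde 2 was the lowest Gironde array in 22 of the 23 contigs, Certes 6 the lowest Certes array in 16, and both in 15. The contigs with the highest mean r to the rest of the group were contig_39060 (0.823), contig_6543 (0.818) and contig_22182 (0.815). contig_39060 ran from -0.9996 over -0.24 to 0.26 in Certes and from -2.79 over -0.81 to 0.06 in Gironde. contig_6543 ran from -1.14 over -0.04 to 0.55 in Certes and from -2.70 over -0.83 to 0.16 in Gironde. The SD was larger in Gironde than in Certes for 20 of the 23.

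Group 1 held mainly contigs that were bright in the reference channel. Of its 23 contigs, 15 lay in the brightest 25% and 3 in the dimmest. Of the 24 contigs of the whole 100 in the brightest 25%, these 15 were in group 1. The order of the Gironde arrays in group 1 followed the width of the arrays in part. The narrower arrays Gironde 1, 4 and 6 (widths 1.23, 1.33 and 1.45) were the high ones, and Gironde 2, the widest of all at 1.86, was the lowest. Gironde 7 and 3 had widths of 1.75 and 1.72. In Certes the order followed it less. Certes 6, the widest (1.63), was the lowest and Certes 8, the narrowest (1.13), the highest, but Certes 4, the second widest (1.46), was the second highest at 0.26, and the narrow Certes 5 and 2 (1.16 and 1.23) lay at -0.05 and -0.17. Once all arrays had been given the same median absolute deviation, the largest group again had 23 contigs, 21 of them the same. The original 23 contigs were then at -0.98 on Gironde 2, 0.77 on Gironde 4, -0.56 on Certes 6 and 0.57 on Certes 8. Before this scaling they were at -1.37, 0.92, -0.72 and 0.53 on these arrays. The part of array width in group 1 was not tested.

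**Figure D4:**
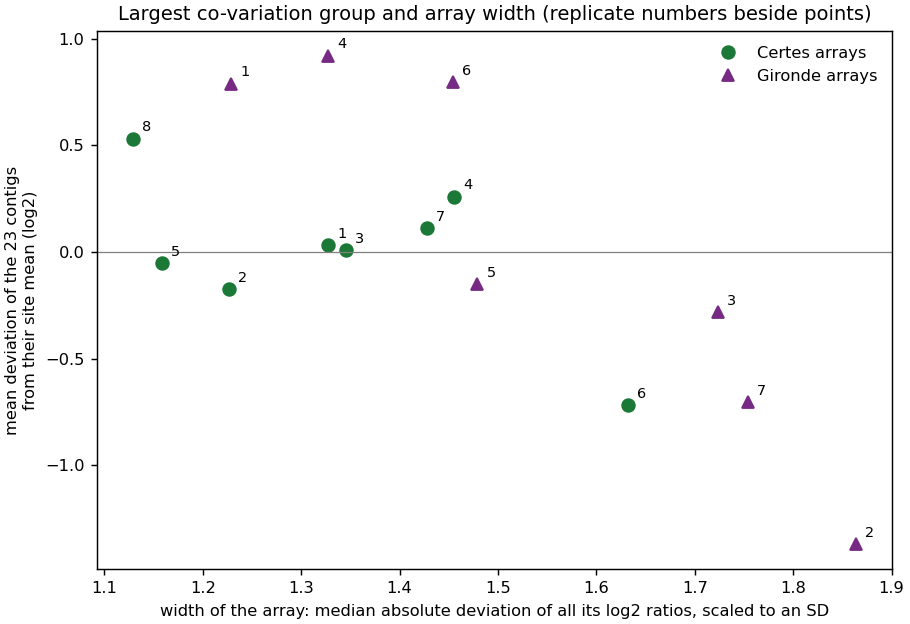
Mean deviation of the 23 contigs of group 1 from their site mean (vertical axis, log2) against the width of each array (horizontal axis), 1 circle per Certes array and 1 triangle per Gironde array, with replicate numbers. The lowest arrays of each site, Gironde 2 at -1.37 and Certes 6 at -0.72, are also the widest of their site, at 1.86 and 1.63.

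Group 3, also of 7 contigs, was led by contig_24181, contig_15822 and contig_29787 with mean r of 0.689, 0.664 and 0.640. It was high on Gironde 6 (mean deviation 1.11) and Certes 6 (0.86) and low on Gironde 2 (-1.25) and Certes 3 (-0.70). contig_15822 ran from -1.44 over -0.74 to 0.66 in Certes and from -1.82 over -0.72 to 1.35 in Gironde. Group 1 and group 3 thus shared the low Gironde 2 and the high Gironde 6, and they went opposite ways on Certes 6 and on Gironde 1 (0.79 in group 1 and -0.64 in group 3). In the reference channel 5 of the 7 contigs of group 3 lay in the dimmest 25%. Group 4, with 6 contigs and contig_4006 among them, had Gironde 1 as its highest Gironde array in all 6, with a mean deviation of 2.11. Group 5, with 5 contigs, was highest on Gironde 4 (1.09) and Certes 6 (0.87) and lowest on Gironde 2 (-0.86). Group 7 held contig_14594, contig_26652, contig_5349 and contig_17384, all highest in Gironde on Gironde 6 (mean deviation 2.82), and all 4 lay in the dimmest 25%.

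Gironde arrays carried more of the spread than Certes arrays. Their 7 arrays held 62.0% of the squared within-site deviation of the 100 contigs, against 52.4% in the other near-pool contigs. Gironde 2 held the largest share, 11.3%, followed by Gironde 3 with 10.3%, Gironde 1 with 9.83%, Gironde 6 with 9.65% and Certes 1 with 9.28%. Certes 8 held the least, 3.27%. In the other near-pool contigs Gironde 2 (9.54%) and Gironde 6 (9.18%) held the largest shares and Certes 8 (3.70%) the least. Gironde 3, Gironde 1 and Certes 1 held 7.41%, 5.93% and 6.49% there. The largest deviation of a contig fell on Gironde 2 in 24 of the 100, on Gironde 6 in 13, on Gironde 1 and Gironde 3 in 10 each, and on Certes 8 in 0. The SD was larger in Gironde for 69 of the 100, with a median ratio of Gironde SD to Certes SD of 1.46. Among the other 449 contigs it was larger for 280 (62.4%), with a median ratio of 1.12. The variances of both sites entered the choice of the contigs, so these shares were not tested. Over all contigs the array widths ran from 1.23 to 1.86 in Gironde and from 1.13 to 1.63 in Certes. Gironde 2 was the widest array. The part of array width in the larger Gironde share was not tested.

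Most contigs with the most unequal spread had 1 or 2 arrays far from the rest. contig_14877 had the largest ratio, with SDs of 1.61 in Gironde and 0.364 in Certes, and was high on Gironde 4. contig_26652 followed with 1.67 and 0.412, high on Gironde 6 (4.25) and Gironde 4 (2.10), and then contig_14594 with 1.79 and 0.511. At the other end contig_3639 had SDs of 0.242 in Gironde and 1.42 in Certes, and its pooled SD dropped from 1.06 to 0.327 without Certes 2. contig_22555 had 0.686 and 1.56, with Certes 1 at 3.90, and contig_17994 had 0.391 and 0.807. The Gironde SD was more than 2 times the Certes SD in 28 of the 100 contigs and the Certes SD more than 2 times the Gironde SD in 4. In 51 of the 100 the pooled SD fell under the limit of 0.640 when the array that lowered it most was left out. That limit is the lowest pooled SD of the 100 and was kept fixed, so contigs close to it fall under it readily. When the selection was run again with 1 array left out, 86 to 96 of the 100 were kept.

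The sites ranked the contigs alike in part. Over the 549 near-pool contigs, the SD in Certes and the SD in Gironde, which share no array, correlated with Spearman's rho of 0.61 and Pearson's r of 0.57. This is a description across contigs, which are not independent replicates, and both SDs share the reference and the brightness of the contig. Of the 100 contigs with the largest SD in Certes and the 100 with the largest in Gironde, 50 were in both lists, 50% of each. Each list takes 100 of the 549 near-pool contigs, so some overlap arises without any shared order. With the median absolute deviation in place of the SD, which gives less weight to single arrays, rho was 0.36.

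**Figure D5:**
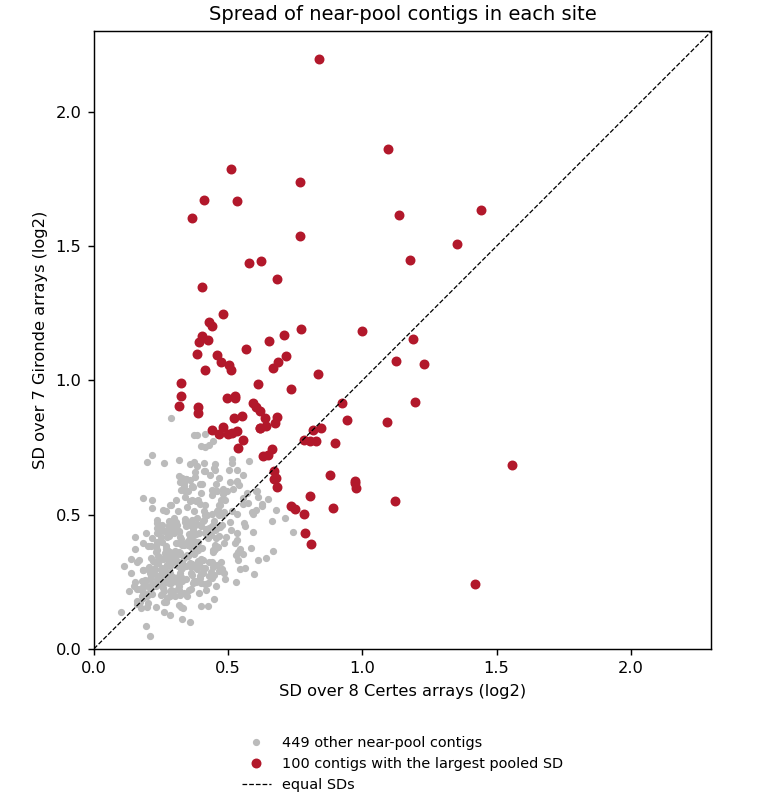
SD over the 7 Gironde arrays (vertical axis) against the SD over the 8 Certes arrays (horizontal axis), both of log2 ratios, for the 100 contigs with the largest pooled SD (red) and the 449 other near-pool contigs (grey), with a dashed line at equal SDs. Of the red points 69 lie above the line, and the point lowest and far to the right is contig_3639 at 1.42 and 0.242.

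The reference channel gave the brightness of a contig in the pool on 1 slide, which the selection did not use directly. The pool is part of every ratio, so this brightness is not independent of the spread. This brightness is a foreground intensity with no background subtracted. In the dimmest 25% of all 992 contigs lay 44 of the 100, against 52 of the other 449 near-pool contigs (11.6%). In the brightest 25% lay 24 of the 100, against 141 of the other 449 (31.4%). The median log2 brightness was 7.71 in the 100, 8.13 in the other near-pool contigs and 7.95 over all contigs. Across the 549 near-pool contigs pooled SD and brightness had a Spearman's rho of -0.34, again a description. Brightness hardly ordered the 100 among themselves, as the median pooled SD was 0.804 in the 44 dimmest and 0.798 in the 24 brightest. Of the 20 with the largest pooled SD, however, 11 were in the dimmest 25% and 1 in the brightest, contig_35979. The 3 spots of a contig differed on that slide by a median of 0.116 (log2, highest minus lowest) in the 100 and 0.110 in the other near-pool contigs. The part of weak reference signal in the spread of the dim contigs was not tested.

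The study's question, which transcripts differ between gonads from Certes and Gironde, could be tested in these contigs by limma on the whole table. Their large spread widens each interval, with a median SE of the difference of 0.38 against 0.24 over all contigs. No contig of the 100 passed an adjusted p of 0.05 (limma, Benjamini-Hochberg over 992 contigs, lowest adjusted p 0.327), where 1 contig of the whole table did (0.101%). At an unadjusted p of 0.05, 10 of the 100 passed, 5 higher and 5 lower in Gironde, against 9.68% of all contigs (4.54% higher and 5.14% lower). The share is close to that of the table. The count moved with single arrays. It was 6 (4 higher, 2 lower) without Certes 5, where 7.96% of all contigs passed, and 20 (7 higher, 13 lower) without Certes 6, where 13.8% did. It was 21 (6 higher, 15 lower) without Gironde 1 against 13.8% of all contigs, 20 (5 higher, 15 lower) without Gironde 4 against 13.1%, and 16 (6 higher, 10 lower) without Gironde 6 against 12.4%. With array weights 18 (6 higher, 12 lower) passed, against 12.1% of all contigs, with unequal variances 6 (4 higher, 2 lower), against 7.66%, and with every array brought to the same SD 5 higher and 2 lower, against 7.16%. The median difference of Gironde from Certes was 0.04 in the 100 and -0.02 over all contigs, and its median size 0.46 and 0.20. A large within-site SD alone enlarges the size of such differences, so the rule favours the larger size in the 100. The sites overlapped in all 100, and 0.202% of all contigs did not overlap. The 95% interval stayed between -1 and 1 for 24 of the 100, against 72.0% of all contigs. For 66 it held 0 and reached past 1 or -1, so a shift of 1 on the log2 scale could not be told from none there, and for the other 10 it reached past 1 or -1 without holding 0. P-values set the site difference against the spread between samples of a site. The labels name these samples one by one without saying that each is another animal.

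The contigs with the smallest p-values in each direction did not pass the adjusted threshold, and their values follow. contig_21396 had the lower mean in Gironde, at -2.24 ± 1.62 (SD, n = 7) against -0.21 ± 1.14 (SD, n = 8) in Certes. The Gironde mean minus the Certes mean was -2.03 ± 0.64 (SE), with an adjusted p of 0.327 in limma. Of the 7 Gironde arrays 6 lay below all Certes arrays, and Gironde 3, at -0.02, lay among them. The higher mean in Gironde was found in contig_4032, which ran from -0.12 over 0.29 to 2.04 in Certes and from 0.56 over 1.57 to 2.95 in Gironde. Its difference was 1.10 ± 0.37 (SE; limma, adjusted p = 0.354), and the ranges overlapped between 0.56 and 2.04. contig_384 had a mean higher in Gironde by 0.89 ± 0.32 (SE), with an adjusted p of 0.354 in limma and with Gironde 6 and 7 at 1.96 and 1.72 and every other array at 0.71 or below. contig_4723 differed by 1.65 ± 0.61 (SE; limma, adjusted p = 0.361), with the high arrays Gironde 4 and 6. contig_17994 differed by -0.82 ± 0.32 (SE; limma, adjusted p = 0.362) and contig_18558 by -0.81 ± 0.35 (SE; limma, adjusted p = 0.44). All of these 6 contigs other than contig_18558 lay in the dimmest 25% of the reference channel. In group 1, 20 of 23 contigs had the lower mean in Gironde, with a median difference of -0.59. Over all contigs the median difference was -0.02. Of the 100 contigs 48 had the lower mean in Gironde, and these include the 20. The 23 contigs were grouped by co-variation (median pairwise r 0.771), so their shared direction is not 23 separate observations. Without Gironde 2 the lower mean was found in 19 of the 23, with a median difference of -0.37. With all arrays 3 of the 23 passed the unadjusted threshold, where 5.14% of all contigs passed as lower. All 3, contig_18558, contig_11861 and contig_27094, had the lower mean in Gironde and lay in the brightest 25%. These calls moved with the scaling of the arrays and with single arrays. With every array brought to the same median absolute deviation 1 of them passed, contig_18558, and with the same SD 0 of the 23 contigs passed, while 20 had the lower mean under both. The number that passed was also 0 with unequal variances, 10 with array weights, and between 0 and 13 when 1 array was left out. It was 0 without Certes 5, Certes 8, Gironde 2, Gironde 3 or Gironde 7, and 1 without Certes 3, Certes 4, Certes 7 or Gironde 5. It was 10 without Certes 6, 11 without Gironde 1, 13 without Gironde 4 and 8 without Gironde 6. All of these had the lower mean in Gironde. Of all contigs 8.27%, 8.17%, 7.76% and 7.16% passed as lower in these fits, in that order. The share was 3.83% with arrays at the same median absolute deviation and 3.125% at the same SD. It was 4.13% with unequal variances and 7.06% with array weights. With 1 array left out the lowest share was 3.125%, without Gironde 2.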

How the data were processed

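The authors' deposited log ratios, read as log2 of sample (Cy3) over pool (Cy5), cover 992 contigs on 15 arrays, and 121 of 14880 cells are empty. Dyes and pool are given per the labels' protocols. The base and direction of the ratio are not stated. Image analysis, background correction and the normalization method were not given in the sources used here. A deposited scanner table of 2976 spots, 3 per contig, holds foreground intensity. Only the pool's intensity on 1 slide was used, as the median of the log2 values of a contig's 3 spots. Another 59 columns of values were not used, since slide numbers match no label.

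Members and lists were chosen with earlier results of these data known. Contigs were named by their rank in pooled SD, site difference, ratio of site SDs, co-variation or fall without 1 array; others were named after their values were seen, as were steps and patterns of array sets. Site differences were tested two-sided with limma 3.58.1 (R 4.3.3; lmFit, eBayes, no covariates) over all contigs with at least 2 values per site, with Benjamini-Hochberg adjustment, and the scripts were tested on simulated data. The labels do not say that each sample is another eel. The p-values then set a site difference only against the spread of these samples, which may be technical. Other steps used Python 3.11.15 with numpy 2.4.6, pandas 2.3.3 and scipy 1.17.1. Alternatives were array scaling, other variance models, filters, selections and linkages, and each array left out. The number of arrays limits the precision.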

Additional observations from a re-analysis of the deposited data

Results flagged for a closer look

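In 28 contigs named by rank or singled out, the 8 Certes and the 7 Gironde values were each searched for a single stray array. A set was marked when the gap from its lowest or highest array to the nearest other, divided by the whole range, exceeded Dixon's limit at 95% for that number of arrays. This marked 16 of 56 sets, in 12 contigs. Chance marks about 1 in 20 sets, and the choice of contigs with a large spread favours stray arrays. Over all 100 contigs 11 Certes and 14 Gironde sets were marked, against 6.01% and 6.24% among the other 449 near-pool contigs.

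Certes 1 was the stray low array in contig_35165 (gap ratio 0.824), contig_17499 (0.743), contig_19308 (0.835) and contig_25419 (0.629). Gironde 5 was the stray low array in contig_35165 (0.786), contig_17499 (0.815) and contig_19308 (0.944). In contig_25419 Gironde 5 was lowest as well, and its gap to Gironde 3 stayed under the limit.

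Among the contigs searched, Gironde 3 was the stray low array in contig_2179 (0.862), contig_35979 (0.790), contig_33270 (0.830) and contig_15113 (0.836). Stray high arrays were Gironde 6 in contig_14594 (0.822), Gironde 4 in contig_14877 (0.734) and Certes 1 in contig_22555 (0.831). Certes 2 was low in contig_3639 (0.711), and Certes 7 was low in contig_14594 (0.553). No explanation of these arrays was tested.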

How the results depend on the processing

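No paired analysis was possible because the labels give the samples of the sites no shared replicate numbers. The adjusted count stayed at 0 under every alternative run, and the 6 named differences kept their sign with none past an adjusted p of 0.05. With 1 array left out they ranged from 0.89 to 1.31 for contig_4032, 0.68 to 1.02 for contig_384, 1.14 to 1.94 for contig_4723, -2.40 to -1.50 for contig_21396, -0.98 to -0.64 for contig_17994 and -0.97 to -0.64 for contig_18558. The count at an unadjusted p of 0.05 was 10, with a range of 6 to 21 with 1 array left out, 6 with unequal variances and 18 with array weights; the cause was not tested. With 1 array left out the median pooled SD ranged from 0.763 to 0.832, the first component from 20.5% to 26.5%, the largest group from 19 to 27 contigs, rho of the site SDs from 0.55 to 0.62 and the contigs again selected from 86 to 96. The first component held 29.4% without Certes 1 and Gironde 5 together, an alternative chosen after seeing the data. The largest group held 13 contigs with complete linkage, rho was 0.36 with the median absolute deviation, and 66 contigs were selected again with a near-pool limit of 0.5, where fewer contigs qualify. The other alternatives stayed within the limits set for a move. For counts the limit was a fixed factor. For the median pooled SD, the first component and rho it was the SE estimated by leaving out 1 array at a time. Values could still change within these limits. Signal over background was not available per sample, so what it limits was not assessed.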
